A study of Mus musculus with 4 samples.

Results

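The methylation landscape of Emerald-high mouse embryonic stem cells was read from 2 of the 4 libraries of the series, the HpaII and the MspI library of the same sorted fraction. The cells were MC1-ZE7, a reporter line on the MC1 (129S6/SvEvTac) background in which the promoter of Zscan4c drives the fluorescent protein Emerald, grown without feeders in serum and LIF and taken at passage 31. The fraction labelled Emerald-high was collected by flow sorting, and its genomic DNA was cut with 1 enzyme per library. The data come from 1 reporter line with 1 library per enzyme, so no test was made; intervals cover counting error only, and the spread over the 19 autosomes is given as a description of the same 2 libraries. RNA was not measured in these files, so the identity of the sorted cells could not be checked against marker genes.

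Zscan4 genes are switched on in 2-cell embryos and, for short periods, in a few cells of an embryonic stem cell culture. In mammalian DNA most CG dinucleotides are methylated, and the unmethylated ones are concentrated in CpG islands, short stretches rich in CG that overlap the start sites of many genes. HELP tagging reads this at the sequence CCGG. HpaII cuts it only where the central CG is unmethylated, MspI cuts it either way, and a short tag next to each cut is sequenced. The HpaII library held 5662614 tags and the MspI library 9372711, spread over 1594137 CCGG sites on 21 chromosomes, and 55.7% of sites had an HpaII tag and 69.5% an MspI tag. HpaII/MspI below is the ratio of tags after each library was scaled to its total: 1 (0 on the log2 scale) is the library average, and a higher ratio means more HpaII cutting, hence less methylation. It gives no percentage of methylated molecules.

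Positions holding very many tags pull every summed value. Of all CCGG sites, 3 on chromosome 2 (98502951, 98506419 and 98506660 in mm9) held 8.63% of all MspI tags and 0.745% of HpaII tags, with a ratio of 0.086 at each of the 3. Another 4 positions held over 0.1% of HpaII tags with high ratios and pull sums the other way: 22444105 and 22444219 on chromosome 2 (4.69 and 4.07) and 39980184 and 39980861 on chromosome 17 (3.85 and 3.75). Over all its sites, chromosome 17 had a log2 ratio of 0.44, or 0.20 without the 0.1% of sites with the most MspI tags (1598 sites with at least 47.5 tags each), called the most tagged sites. Values are therefore also given without them. Such values keep the scaling to the full library totals, and all remaining sites together then have a log2 ratio of 0.09.

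To show what a CCGG site looks like in its gene, 6 promoters that recur below are printed here, chosen after their values were seen because they mark the low end (Cdsn, Lcat, Hormad1) and the high end (Skp2, Ccdc159) of HpaII/MspI, with Dnmt1 as a gene of the methylation machinery. Each runs 5′ to 3′ from 250 bases before to 50 after the RefSeq start of the GRCm38.p6 annotation, and capitals mark CCGG. The GRCm38.p6 regions are chr17:35551878-35552177 (plus strand), chr8:105943353-105943652 (minus strand), chr3:95559427-95559726 (plus strand), chr9:20952574-20952873 (minus strand), chr15:9140405-9140704 (minus strand) and chr9:21927221-21927520 (plus strand).
Cdsn: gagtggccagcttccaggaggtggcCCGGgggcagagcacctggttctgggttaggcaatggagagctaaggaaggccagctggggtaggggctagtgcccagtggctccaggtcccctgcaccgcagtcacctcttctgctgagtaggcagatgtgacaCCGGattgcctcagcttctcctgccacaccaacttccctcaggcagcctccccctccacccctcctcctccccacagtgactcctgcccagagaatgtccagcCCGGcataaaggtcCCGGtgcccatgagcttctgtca
Lcat: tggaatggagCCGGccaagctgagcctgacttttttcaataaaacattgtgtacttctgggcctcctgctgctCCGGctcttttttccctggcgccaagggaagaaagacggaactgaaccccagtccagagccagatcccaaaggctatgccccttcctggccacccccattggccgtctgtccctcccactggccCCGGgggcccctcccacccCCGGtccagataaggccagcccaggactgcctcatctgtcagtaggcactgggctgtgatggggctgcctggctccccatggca
Hormad1: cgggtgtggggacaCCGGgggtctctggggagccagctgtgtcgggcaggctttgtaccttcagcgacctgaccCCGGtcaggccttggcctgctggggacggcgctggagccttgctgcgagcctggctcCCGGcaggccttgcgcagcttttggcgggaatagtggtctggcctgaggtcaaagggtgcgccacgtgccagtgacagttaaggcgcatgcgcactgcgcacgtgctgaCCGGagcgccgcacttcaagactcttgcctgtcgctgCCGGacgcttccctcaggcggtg
Dnmt1: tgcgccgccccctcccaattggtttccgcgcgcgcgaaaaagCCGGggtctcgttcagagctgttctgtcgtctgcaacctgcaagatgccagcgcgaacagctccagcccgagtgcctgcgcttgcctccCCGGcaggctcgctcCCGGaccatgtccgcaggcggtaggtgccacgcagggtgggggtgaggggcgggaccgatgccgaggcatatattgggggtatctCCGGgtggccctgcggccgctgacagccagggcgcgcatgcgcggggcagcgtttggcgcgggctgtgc
Skp2: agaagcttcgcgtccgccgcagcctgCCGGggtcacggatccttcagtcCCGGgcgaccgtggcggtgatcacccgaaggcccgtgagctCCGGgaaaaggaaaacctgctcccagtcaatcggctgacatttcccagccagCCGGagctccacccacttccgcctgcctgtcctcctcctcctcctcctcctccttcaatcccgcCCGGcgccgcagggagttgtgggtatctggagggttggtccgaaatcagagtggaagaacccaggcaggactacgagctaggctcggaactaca
Ccdc159: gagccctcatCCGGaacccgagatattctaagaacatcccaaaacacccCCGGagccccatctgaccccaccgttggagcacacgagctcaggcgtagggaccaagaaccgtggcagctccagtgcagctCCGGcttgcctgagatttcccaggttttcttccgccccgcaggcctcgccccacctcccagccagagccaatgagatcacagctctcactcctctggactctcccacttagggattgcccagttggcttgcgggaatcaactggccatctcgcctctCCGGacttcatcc

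These promoters were found among the deposited sites without converting coordinates. The order and exact spacing of at least 4 CCGG in the printed 300 bases was looked for on the same chromosome of the deposited mm9 site list, and 4317 of 4373 such promoters (98.7%) had exactly 1 match. In a search of a wrong chromosome, 12 promoters (0.274%) found a match, and 100% of 4298 adjacent pairs of matched promoters lay in the same order in both builds. Promoters with at least 4 CCGG are the CCGG-rich minority, 4373 of the 32851 promoters in the table, and no promoter of chromosome 18 was in it, so what follows about promoters does not cover CG-poor ones.

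HpaII cutting rose steeply with the local density of CCGG. Density was counted as the number of CCGG within 500 bp either side, the site itself included. Isolated sites (1 CCGG; 598929 sites) had 2.58 HpaII and 5.95 MspI tags per site and a ratio of 0.717. Dense sites (at least 10 CCGG, as in CpG islands; 130174 sites) had 5.73 HpaII and 2.82 MspI tags per site and a ratio of 3.36. The classes between them were unequal steps: 2 to 4 CCGG (701718 sites) stayed near the isolated level at 0.796, and 5 to 9 CCGG (163316 sites) reached 2.36. Dense sites thus held 13.2% of HpaII tags but 3.92% of MspI tags.

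The difference between dense and isolated sites was 2.23 on the log2 scale (95% counting interval 2.22 to 2.24), a 4.69-fold higher ratio. It lay above 0 on 19 of 19 autosomes, with a mean of 2.17 ± 0.26 (SD over autosomes). Without the most tagged sites it was 2.12, and the autosomes then ran from 2.02 to 2.23, far closer to each other than to 0.

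In finer steps most of the rise lay between 3 and 9 CCGG. The log2 ratio was -0.48 at 1 CCGG and -0.61 at 2 (-0.36 and -0.39 without the most tagged sites), so a single close neighbour went with no higher ratio. It was -0.11 at 3, 0.26 at 4, 0.77 at 5, 1.33 at 6 to 7 and 1.66 at 8 to 9. From there it was level, at 1.76 for 10 to 14 and 1.75 for 15 to 19 CCGG. At 20 to 29 CCGG it was 1.61, but the autosome median was 1.76 and the lowest autosome 0.12, so the lower pooled value belongs to some chromosomes and not to the typical one. The 693 sites with 30 or more CCGG had a log2 ratio of 1.08. Over the 17 autosomes with a value the median was 1.62, from -2.95 to 2.36.

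**Figure D1:**
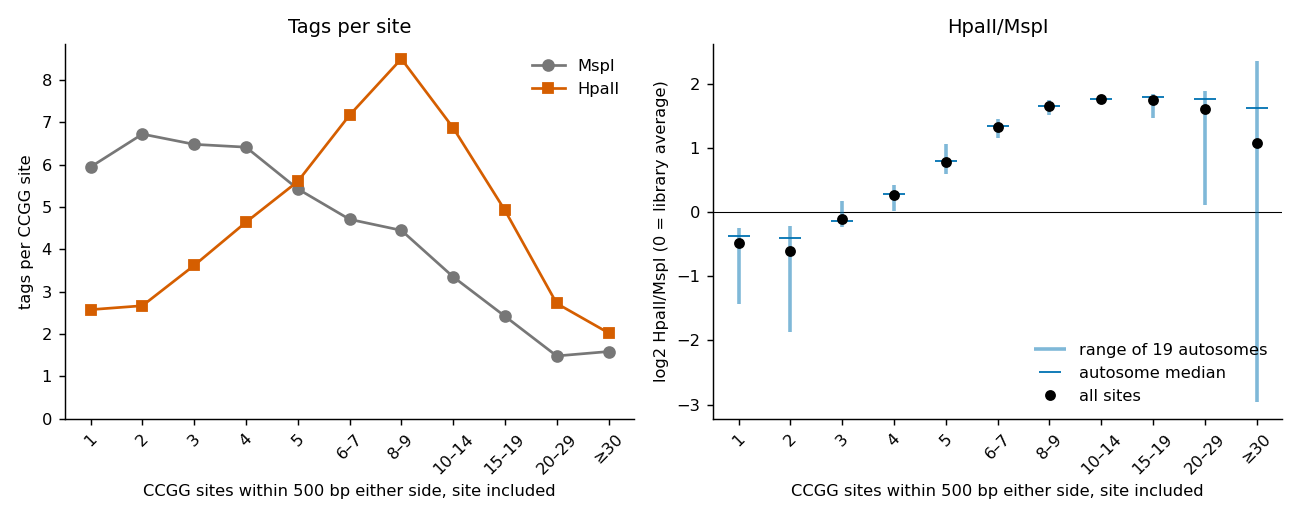
Left, mean HpaII and MspI tags per CCGG site against the number of CCGG within 500 bp either side. Right, log2 HpaII/MspI of all sites in each step (points), with the median (dash) and full range (bar) of the 19 autosomes. The last step, 30 or more CCGG, has values on 17 autosomes. HpaII tags per site rise to 8.50 at 8 to 9 CCGG and then fall, MspI tags fall from 6.72 at 2 CCGG to 1.48 at 20 to 29, and the ratio is level from 10 to 19 CCGG.

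MspI, whose cutting does not depend on methylation, gave fewer tags per site where sites were crowded, and HpaII tags per site alone were 1.16 higher (log2) at dense than at isolated sites, against 2.23 for the ratio. Where the nearest other CCGG was within 10 bp, MspI gave 1.504 and HpaII 2.09 tags per site. At a nearest neighbour 51 to 100 bp away the same counts were 6.85 and 5.77. The part that spacing has in the ratio was not tested.

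The values of single sites had a wide spread. For the 318900 sites with at least 10 MspI tags a score was formed as 100 × (2/π) × arctan(HpaII/MspI), where 0 is no HpaII tag and 50 is the library average. The median score was 26.5, with quartiles of 10.4 and 51.7. No HpaII tag was seen at 11.8% of these sites, 40.5% scored under 20 and 6.22% over 80. At the minimum of 10 MspI tags, a single score carries a large counting error.

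The classes also differed in the shape of the score distribution. Scores cover only sites with at least 10 MspI tags, so they describe sites selected on MspI. These were 20.2% of isolated sites, 23.2% of those with 2 to 4 CCGG, 16.6% of those with 5 to 9 and 6.36% of dense sites. Isolated sites had a median score of 24.98, with 40.4% under 20 and 2.30% over 80. Dense sites had a median of 78.2, with 4.36% under 20 and 40.7% over 80. In the class of 5 to 9 CCGG, 21.3% of sites scored under 20 and 24.04% over 80, so both kinds of site were common at this density. The class of 2 to 4 CCGG held the largest share of low scores among the 4 classes, 45.6% under 20. Its pooled ratio, which uses all sites and not only those with a score, was above that of isolated sites.

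HpaII cutting also varied with how near a site lay to a dense stretch, and this held within classes of local density. Only isolated sites all have the same density. The mix of densities within 2 to 4 CCGG at each distance was not examined. Sites with 2 to 4 CCGG had a ratio of 3.31 within 500 bp of the nearest dense site, close to the 3.36 of dense sites themselves. The ratio was 2.78 at 501 to 1000 bp, 1.72 at 1 to 2 kb and 1.20 at 2 to 5 kb. It passed the library average between 5 and 20 kb, at 1.04 and then 0.953, and was 0.575 at 100 to 500 kb and 0.757 beyond 500 kb. Those last 2 log2 ratios were -0.50 and -0.59 without the most tagged sites.

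Isolated sites followed the same course from a lower start. Their log2 ratio was 1.41 at 501 to 1000 bp, 0.60 at 1 to 2 kb, 0.06 at 2 to 5 kb and -0.11 at 5 to 10 kb. The fall went on slowly with further distance, to -0.20 at 10 to 20 kb, -0.30 at 20 to 50 kb and -0.42 at 50 to 100 kb. It was -0.48 at 100 to 500 kb without the most tagged sites, and beyond 500 kb it was higher again, at -0.33. Most of the drop thus lay within 5 kb of the dense site, and the farthest isolated sites were not the lowest.

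The contrast of near against far sites was large in both classes. Sites with 2 to 4 CCGG had a log2 ratio 2.32 higher within 1 kb than over 100 kb from a dense site (interval 2.30 to 2.33), or 2.07 without the most tagged sites, and it was above 0 on 19 of 19 autosomes (2.08 ± 0.07, SD over autosomes, without those sites). Isolated sites within 5 kb exceeded those over 100 kb by 1.07 (interval 1.05 to 1.08), or 0.82 without the most tagged sites, again on 19 of 19 autosomes (0.82 ± 0.12).

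Sites with 5 to 9 CCGG were the exception to the return to the average. They began at a log2 ratio of 1.75 within 500 bp of a dense site, were at 1.27 at 2 to 5 kb, and stayed between 1.04 and 1.13 from 5 to 100 kb. Even at 100 to 500 kb they were at 0.90. Their median score fell further over the same range, from 78.6 within 500 bp to 40.3 at 100 to 500 kb, and the share of sites scoring under 20 rose from 3.44% to 33.5%. Scores cover only the sites with at least 10 MspI tags, 15.9% within 500 bp and 12.6% at 100 to 500 kb. The pooled ratio uses all sites, so the median score and the pooled ratio describe different sets of sites.

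**Figure D2:**
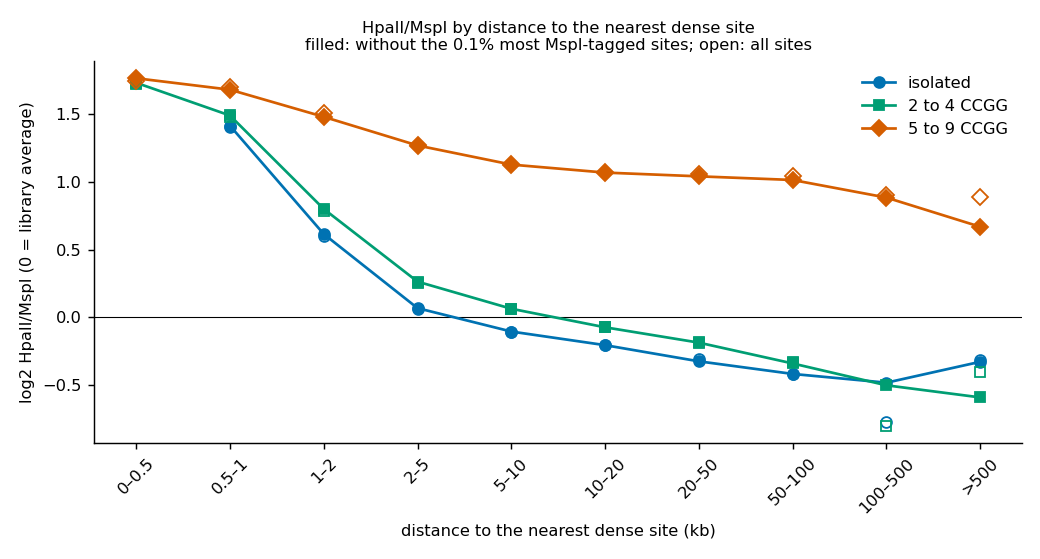
Log2 HpaII/MspI (0 is the library average) against distance to the nearest dense site in kb, for isolated sites, sites with 2 to 4 CCGG and sites with 5 to 9 CCGG. Filled symbols leave out the most tagged 0.1% of sites and open symbols use all sites; the first 2 classes fall from over 1.4 within 1 kb to below 0 beyond 10 kb, while the third stays above 0.6.

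Neighbouring sites shared their state over about 1 kb. Between adjacent sites with at least 10 MspI tags each, the Spearman correlation of scores was 0.74 at a spacing of up to 50 bp (6648 pairs), 0.63 at 201 to 500 bp (22027 pairs) and 0.49 at 501 to 1000 bp (19178 pairs). It was 0.24 at 1 to 2 kb (33314 pairs), 0.14 at 2 to 5 kb (75248 pairs) and 0.04 over 50 kb (5672 pairs). Pairs where both sites had at most 4 CCGG nearby, and which therefore mostly leave CpG islands out, went from 0.56 to 0.27 and 0.04 at up to 50 bp, 501 to 1000 bp and over 50 kb. All pairs share the same 2 libraries and their counting error, so these are descriptions.

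A slower pattern appeared at the scale of 100 kb and did not run in 1 direction. Isolated sites were sorted by how many CCGG lay within 50 kb on either side, a measure of how CCGG-rich the wider region is. Without the most tagged sites, the log2 ratio was -0.22 in the poorest regions (at most 30 CCGG), fell to -0.58 at 51 to 60 CCGG, and rose to 0.10 in the richest (over 120). The lowest HpaII cutting of isolated sites was thus found in regions of middling density, not in the poorest.

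The same course was seen far from dense stretches. Among isolated sites over 100 kb from any dense site, the log2 ratio without the most tagged sites was -0.21 at up to 30 CCGG (45004 sites), -0.64 at 51 to 60 (39934 sites) and -0.14 at over 120 (3967 sites). With all sites, the step of 41 to 50 CCGG alone was far lower, at -1.46 against -0.54 without the most tagged sites. For these isolated sites over 100 kb away, MspI tags per site were 4.99 in the poorest and 5.41 in the middle regions, the most tagged sites included. HpaII tags per site were 2.63 and 2.09, so the higher ratio of the poorest regions came with more HpaII tags.

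**Figure D3:**
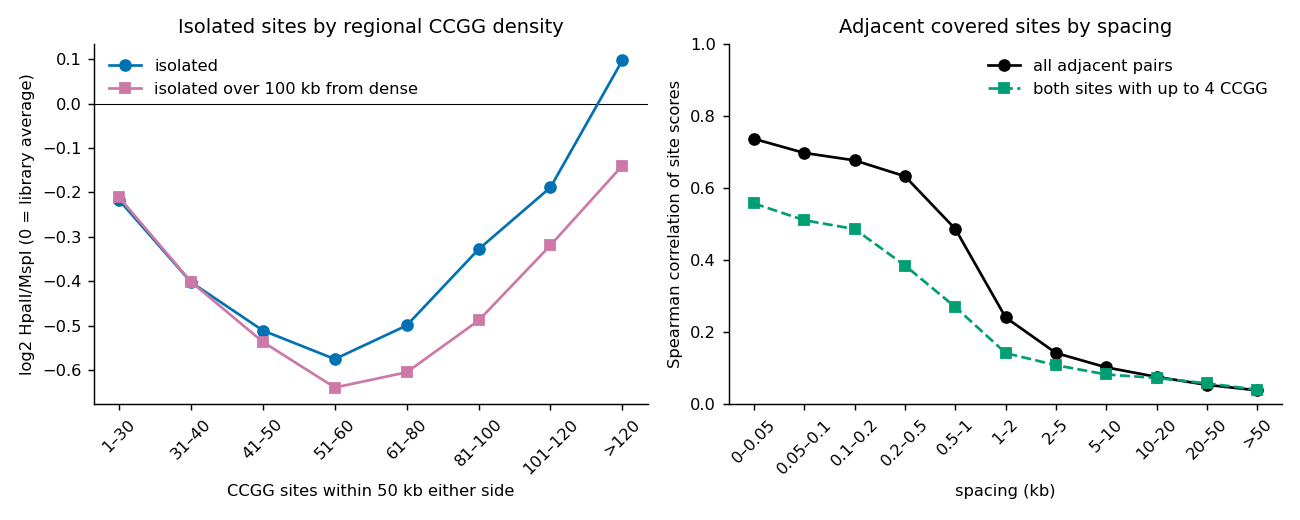
Left, log2 HpaII/MspI of isolated sites against the number of CCGG within 50 kb either side, for all isolated sites and for those over 100 kb from a dense site, both without the most tagged 0.1% of sites; both lines are lowest at 51 to 60 CCGG. Right, Spearman correlation of the scores of adjacent sites against their spacing in kb, falling from 0.74 to 0.04 for all pairs and from 0.56 to 0.04 for pairs with at most 4 CCGG nearby.

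Dense stretches were nearly uniform in HpaII cutting. Dense sites no more than 1000 bp apart formed 9775 clusters, with a median of 12 sites and 573 bp, and 2793 of them had at least 50 MspI tags. Their median ratio was 3.43, with quartiles of 3.04 and 3.83, and 60.2% of them lay between 3 and 4. Only 58 of the 2793 (2.08%) were below the library average. Of those, 47 were among the 253 clusters that held fractional tags, read here as tags shared between positions (18.6%), and 11 among the 2540 clusters with whole tags only (0.433%).

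The 4 whole-tag clusters with the lowest ratios were chosen by their values and are given as a description, in mm9 coordinates. They were chr8:125951609-125952090 (16 HpaII and 244 MspI tags, ratio 0.109), chr18:83453800-83454313 (9 and 95 tags, 0.157), chr8:98788809-98789206 (11 and 110 tags, 0.166) and chr11:3051595-3052088 (13 and 103 tags, 0.209). No matched promoter lay within 1 kb of the 3 on chromosomes 8 and 11; for chromosome 18 none could be matched. At 481, 513, 397 and 493 bp, all 4 were shorter than the median cluster, and they held 3, 11, 7 and 15 sites. With 244 MspI tags on 3 sites, the first includes at least 1 of the most tagged sites (at least 47.5 tags each). Cluster ratios without the most tagged sites were not computed.

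At the other end, the highest clusters reached ratios only modestly above the median. They were chr11:51817374-51817872 (5.73), chr9:18096428-18097116 within 1 kb of the promoter of Chordc1, which encodes an HSP90 co-chaperone (5.59), chr5:120886844-120888146 (5.39) and chr19:45225014-45225990 within 1 kb of that of Tlx1, a homeobox transcription factor gene (5.36). With 50 to 67 MspI tags each, their intervals reached down to between 4.04 and 4.16, above the upper quartile of all clusters. These clusters were picked as the highest and lie near the minimum of 50 MspI tags. Their intervals take no account of that choice, so this comparison does not show an excess.

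Around gene starts the zone of high HpaII cutting was level and had sloping sides. Over the 4311 matched promoters on either side of their RefSeq start, and without the most tagged sites, the ratio stayed between 3.47 and 3.60 from 750 bp before to 1000 bp after the start. Upstream it was 3.27 at 750 to 1000 bp, 2.83 at 1000 to 1500 bp, 1.98 at 1500 to 2000 bp and 1.58 at 2 to 3 kb. Downstream it was 3.00 at 1000 to 1500 bp, 2.26 at 1500 to 2000 bp and 1.54 at 2 to 3 kb. At equal distance from 750 bp to 2 kb the ratio was thus higher inside the gene than before it.

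From 2 kb outwards the upstream side was the higher over all CCGG. At 3 to 5 kb the ratio was 1.42 upstream and 1.26 downstream, and at 10 to 20 kb it was 1.38 upstream and 1.23 downstream. Among sites with at most 4 CCGG nearby, the 10 to 20 kb values were 1.04 upstream and 0.967 downstream, a smaller gap in the same direction.

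**Figure D4:**
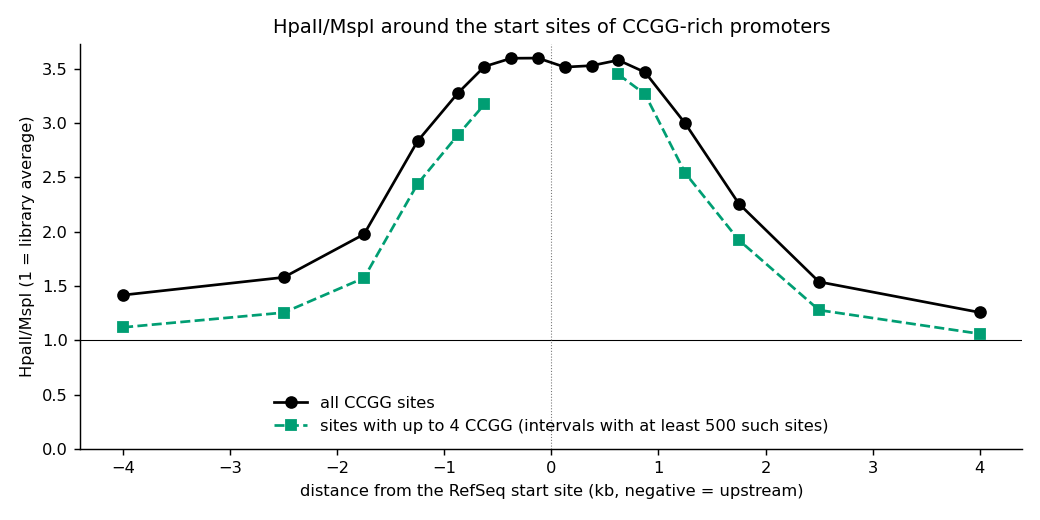
HpaII/MspI (1 is the library average) against distance from the RefSeq start in kb, summed over 4311 CCGG-rich promoters without the most tagged sites, for all CCGG and for sites with up to 4 CCGG within 500 bp. The ratio is level near 3.5 from 750 bp before to 1000 bp after the start and is 1.42 and 1.26 at 3 to 5 kb upstream and downstream.

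Single promoters were almost all well above the library average. Summed over all CCGG from 500 bp before the first to 500 bp after the last matched site, 3196 distinct promoter regions had at least 30 MspI tags. Their median ratio was 3.53, with quartiles of 3.10 and 3.97. Below the average were 7 (0.219%), below 2 were 39 (1.22%), and above 4 were 768 (24.03%).

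The promoters below the average included genes of skin, plasma lipid and pancreatic function and several predicted genes. They were ranked by these same values, so this describes 1 end of a list. Cdsn, which encodes corneodesmosin, an adhesion protein of the outer epidermis, had 3 HpaII and 35 MspI tags and a ratio of 0.142 (exact 95% interval 0.0279 to 0.450). Lcat, the plasma enzyme that esterifies cholesterol, had 25 and 102 tags and a ratio of 0.406 (0.251 to 0.633). Pnliprp2, a pancreatic lipase-related gene, had 16 and 39 tags and a ratio of 0.679 (0.354 to 1.24), so only its point estimate is below 1.

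The remaining 4 below the average were Gm16059 (1 and 31 tags, 0.0534), Gm52682 (17 and 45 tags, 0.625), 1300017J02Rik (30 and 54 tags, 0.920) and Gm16254, which held shared tags. The intervals of Gm52682 and 1300017J02Rik reached above 1. Counting error thus leaves Gm16059, Cdsn and Lcat as the whole-tag promoters whose whole interval was below the library average.

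Within the Lcat promoter printed above, the sites were unlike each other. The first CCGG, 240 bp before the start, gave 15 HpaII and 19 MspI tags. The second, 177 bp before the start, gave 0 HpaII and 20 MspI tags, where 3 HpaII tags, the limit that a count of 0 allows, would be a ratio of 0.248. The 2 sites next to the start gave 1 HpaII and 3 MspI tags each. In Cdsn the 4 printed sites gave 0, 0, 1 and 1 HpaII tags but also only 0, 2, 3 and 6 MspI tags. That is too few to read the printed sites, and its ratio rests on 7 sites with 35 MspI tags, some outside the printed sequence. In Hormad1 the 5 printed sites gave 3, 8, 5, 15 and 7 HpaII and 2, 11, 5, 16 and 8 MspI tags. Their scores were 55.9 to 75.6, but the sites with 2, 5 and 8 MspI tags are below the minimum of 10. Likeness between these sites cannot be read from such counts.

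Promoters with a ratio between 1 and 2 came next. Hormad1, which encodes a protein of the meiotic chromosome axis, had 75 HpaII and 80 MspI tags and a ratio of 1.55 (1.12 to 2.15). Slc2a10, a sugar transporter gene, had a ratio of 1.31, Abcc9, a subunit gene of ATP-sensitive potassium channels, 1.49, and Rap1gap, which encodes a GTPase-activating protein, 1.63. The highest promoters included Ccdc159 (128 and 31 tags, 6.83), the transcription factor gene Foxp4 (119 and 30 tags, 6.57), Skp2, the substrate receptor of a ubiquitin ligase that acts in the cell cycle (167 and 44 tags, 6.28), and Gna14, a G protein subunit gene (118 and 32 tags, 6.10). Every interval among these last 4 began above the upper quartile of all promoters. These 4 were picked from the highest of 3196 regions and held 30 to 44 MspI tags, near the minimum of 30. Their intervals take no account of that choice, so this comparison does not show an excess.

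Promoters with few CG dinucleotides did not have a low summed ratio, but a larger share of them was below 2. The printed Cdsn and Lcat promoters hold 5 and 7 CG, against 33 in Dnmt1, 24 in Hormad1, 23 in Skp2 and 14 in Ccdc159. Yet the 26 matched promoters with fewer than 10 CG had a summed ratio of 3.26 at their matched sites (counting interval 2.96 to 3.60), close to the 3.52 (3.48 to 3.57) of the 2224 with 30 or more. Among promoters with at least 20 MspI tags at matched sites, 2 of 12 with fewer than 10 CG (16.7%) were below 2. So were 5 of 49 with 10 to 14 CG (10.2%) and 4 of 161 with 15 to 19 (2.48%). In the 3 richer groups that share was between 3.17% and 5.42%. It was thus highest in the 2 groups poorest in CG, which rest on few promoters, and no difference between groups was tested.

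Genes of the methylation machinery and of the germ line were looked up from a list of 29, drawn up after the lowest promoters had been seen, of which 14 had a matched promoter. Of the maintenance genes, Dnmt1, which copies methylation to the new strand, had 83 HpaII and 52 MspI tags and a ratio of 2.64 (1.85 to 3.81), and Uhrf1, which brings it to half-methylated DNA, a ratio of 3.00 (1.98 to 4.61). Both intervals include the median of all promoters. The genes of the enzymes that add new methylation were near the median, at 3.43 for Dnmt3a and 3.81 for Dnmt3b. Tet2 and Tet3, which oxidise methylated cytosine, were at 2.78 and 2.86, and the histone methyltransferase genes Ehmt1 and Ehmt2 and the remodeller gene Hells at 3.31, 3.53 and 3.67. No interval among these genes reached 1.

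The 5 germ line genes with a match had lower point values. Ddx4, an RNA helicase of germ cells, was at 2.43, Mael, which acts in transposon silencing, at 2.48, Dmrtb1, a regulator of spermatogonia, at 2.26, Rpl39l, a ribosomal protein gene active in testis, at 1.78, and Hormad1 at 1.55. All 5 were below the lower quartile of all promoters, 3.10, and above the library average, but the intervals of Ddx4 (1.52 to 3.94) and Mael (1.53 to 4.08) include the median of all promoters. Hormad1 and Rpl39l were known to be low when the list was made, so the group supports nothing on its own.

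Across chromosomes the 2 kinds of site kept their levels. Without the most tagged sites, the log2 ratio of isolated sites ran from -0.47 on chromosome 13 to -0.24 on chromosome 11, with a mean of -0.36 ± 0.05 (SD over 19 autosomes). Dense sites ran from 1.63 on chromosome 12 to 1.81 on chromosome 16, at 1.77 ± 0.04. Chromosome 11, with the most CCGG per Mb among autosomes (788.8), had the highest isolated value, and chromosome 3 with the fewest (536.8) was at -0.36.

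The low dense value of chromosome 12 moved with 2 clusters. With all sites it was 1.48, and the 2, at chr12:5057129-5058814 and chr12:5061570-5066490 in mm9, held 4.13% and 16.3% of the dense MspI tags of that chromosome at ratios of 0.0997 and 0.0974. Without these 2 clusters the dense value was 1.796. Both held tags shared between positions.

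The X chromosome had fewer tags and a slightly higher ratio at isolated sites. Its isolated sites had 2.64 MspI and 1.35 HpaII tags per site, 0.499 and 0.541 times the autosome median. The log2 ratio was 0.30 above the summed autosomes with all sites (interval 0.28 to 0.32), 0.17 without chromosome 2 and 0.11 without the most tagged sites. Without those sites the X was at -0.24, level with chromosome 11, the highest autosome. With all sites, its dense sites were at 1.69, below all autosomes but chromosome 12, and sites with 5 to 9 CCGG were at 1.01, below the lowest autosome (1.09). The Y, with 1278 sites, was at 0.48 at its isolated sites with all sites used and is given only as a value.

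Tag numbers set 1 autosome apart. Isolated sites of chromosome 8 had 7.37 MspI tags per site, 1.39 times the autosome median, and HpaII tags were 1.38 times theirs, and its isolated log2 ratio without the most tagged sites, -0.37, lay within the range of the other autosomes. The other 18 autosomes were between 0.901 and 1.08 times the median for MspI. The number of DNA copies per cell was not measured separately, and its part in these values was not tested.

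**Figure D5:**
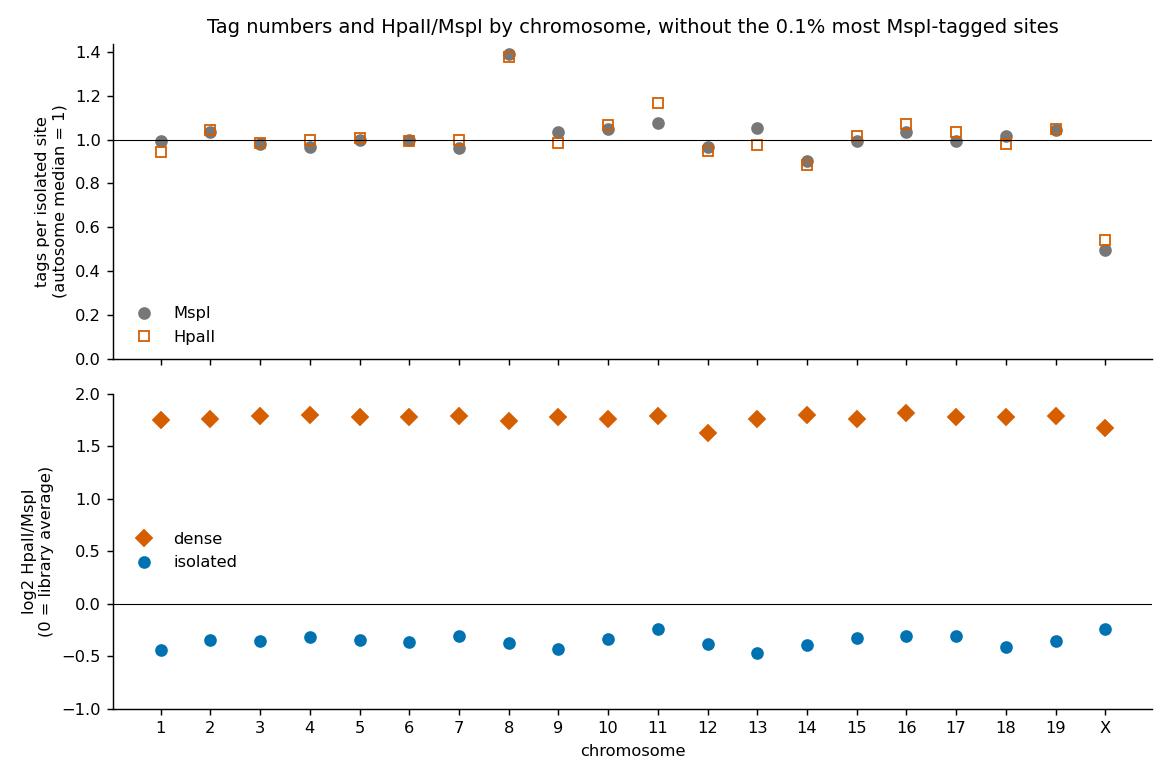
Top, MspI and HpaII tags per isolated site for each autosome and X, relative to the autosome median of the same enzyme. Bottom, log2 HpaII/MspI of dense and isolated sites by chromosome, all without the most tagged 0.1% of sites. Chromosome 8 is at 1.39 and 1.38 and X at 0.499 and 0.541 in the top panel, while dense sites stay between 1.63 and 1.81 and isolated sites between -0.47 and -0.24.

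Position along the chromosome mattered little. When each autosome was divided into 10 equal parts, isolated sites without the most tagged ones stayed between -0.42 and -0.29. Dense sites stayed between 1.76 and 1.82 except in the first of the 10 parts, at 1.60. With all sites that part was at 1.499, with an autosome median of 1.705 and a lowest autosome of -0.16. That part includes the low clusters of chromosome 12.

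The chromosome ends showed a small rise that single chromosomes did not share evenly. With all sites, isolated sites in the first 2 Mb were 0.23 above the interior (interval 0.21 to 0.25) and those in the last 2 Mb 0.23 above (0.20 to 0.25). Without the most tagged sites the differences were 0.08 and 0.10. By chromosome, 11 of 20 were higher in the first 2 Mb (0.07 ± 0.29, SD) and 12 of 20 in the last 2 Mb (0.10 ± 0.29), so the mean was smaller than the spread between chromosomes.

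The last 0.5 Mb was the highest step of the distal end. Its isolated sites had a log2 ratio of -0.07 (interval -0.12 to -0.03), against -0.34 at 0.5 to 1 Mb and -0.31 at 1 to 2 Mb from the end. They were above the interior on 17 of 20 chromosomes, by 0.30 ± 0.36 (SD) without the most tagged sites, from -0.42 on chromosome 11 to 0.99 on chromosome 10. This width was chosen after the values were seen. The median number of CCGG around isolated sites, within 50 kb either side, was 59 there and 61 in the interior, and 9.79% of sites were dense against 8.14%.

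In windows of 1 Mb the isolated sites varied over a wider range than between chromosomes. Of 2426 windows with at least 500 MspI tags at isolated sites, 211 (8.70%) were at least 1.5-fold above all isolated sites and 28 (1.15%) at least 1.5-fold below. Without the most tagged sites, which moves the reference from -0.48 to -0.36, 102 of 2415 (4.22%) were above and 76 (3.15%) below. The SD over windows was then 0.33 on the log2 scale. The 2 parts of the tags that the files list separately gave window values with a Pearson correlation of 0.75 (2415 windows of the same libraries).

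Single sites held most of the HpaII tags in 3 of the 5 highest windows. Chromosome 1 at 24 to 25 Mb had a log2 ratio of 1.40, but 1 site held 89.0% of its HpaII tags and the value was -0.56 without the most tagged sites. The X at 73 to 74 Mb (1.19) and chromosome 4 at 78 to 79 Mb (0.96) were alike in this, with -0.53 and 0.32 without those sites. Chromosome 18 at 37 to 38 Mb, at 0.93 over 202 isolated sites, and chromosome 7 at 9 to 10 Mb, at 0.77 over 185, did not change, and no site held more than 6.37% and 11.6% of their HpaII tags.

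Among the lowest windows, 3 of 5 were spread over many sites. Chromosome 12 at 108 to 109 Mb (-1.38 over 303 isolated sites), chromosome 7 at 145 to 146 Mb (-1.32 over 282, a window holding the matched promoter of Tcerg1l) and chromosome 4 at 103 to 104 Mb (-1.28 over 223) were the same without the most tagged sites, and both parts of the tags gave values between -1.23 and -1.47. Chromosome 17 at 50 to 51 Mb was at -1.52, or -1.13 without them. The lowest of all, chromosome 2 at 98 to 99 Mb (-3.51), is the place of the 3 piled-up sites. The isolated site among them, at 98502951, held 99.8% of the MspI tags of the window. Without the most tagged sites the window was at -0.13.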

How the data were processed

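DNA of Emerald-high MC1-ZE7 cells was measured by HELP tagging in 1 HpaII and 1 MspI library. For each CCGG site the authors deposited 2 estimated counts of tags and a column that adds them, with the library total in the first line per the file headers. Fractional counts were found at 1.71% (HpaII) and 1.94% (MspI) of sites. The submitters' processing notes give mm9 as the build. The aligner, the handling of tags with several matches and what separates the 2 counts were not given in the sources used here. The added column was used as deposited, scaled to totals of 5662614 and 9372711 tags. The Emerald-negative libraries were not used here.

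Site density is the count of CCGG within 500 bp, dense sites have at least 10, and distance runs to the nearest dense site. Intervals are 95%, Poisson for summed tags and exact (Clopper-Pearson) for clusters and promoters. They cover counting error only, since tags carry no molecular identifiers. With 1 library per enzyme there was no test. Named regions are the 5 highest and 5 lowest windows of 1 Mb with at least 500 MspI tags, the 4 highest and 4 lowest whole-tag clusters with at least 50 MspI tags, and positions with over 0.1% of MspI tags; whole means within 0.001 of a whole number. Promoter sequences are those of RefSeq (GRCm38.p6), matched to mm9 sites by CCGG spacing on the same chromosome; no coordinate was converted. The members and lists were chosen with earlier results of these data known, and the promoter match, the promoter minimum of 30 MspI tags, the named promoters (up to 15 lowest and 8 highest with whole tags), the CG groups and the gene list were added after the data were seen. Alternatives changed the site set, density window, dense limit, tag part, minimum, scaling, window size and end width. Scripts were tested on simulated data with known differences. The software was numpy 2.4.6, scipy 1.17.1, pandas 2.3.3 and matplotlib 3.10.9 under Python 3.11.15.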

Additional observations from a re-analysis of the deposited data

How the results depend on the processing

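The density and distance differences kept their direction under every alternative run, and most moved by more than their narrow counting intervals. On the log2 scale, dense minus isolated was 2.23, and 2.14 with whole tags only, 2.12 without the most tagged sites, 2.19 and 2.27 in the 2 parts of the tags, 1.16 for HpaII tags per site, 2.08 and 2.35 with windows of 250 and 1000 bp, 2.201 and 2.199 with dense limits of 8 and 15, and 2.24 on autosomes. Sites with 2 to 4 CCGG, near minus far, were at 2.32, and 2.04, 2.07, 2.19 (HpaII per site), 2.15 and 1.77 (windows), and 1.962 and 2.09 (limits). Isolated sites, near minus far, were at 1.07, and 0.84, 0.82, 0.99 and 1.13 (parts), 0.68 (HpaII per site), 1.16 and 0.84 (windows), 0.77 and 0.96 (limits) and 1.09 on autosomes.

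Isolated sites of X minus autosomes were at 0.30, and 0.10 with whole tags, 0.11 without the most tagged sites, 0.27 and 0.32 in the parts and 0.17 without chromosome 2 (chosen after seeing the data). HpaII tags per site reversed it, to -0.86, since the X has fewer tags of both enzymes. The proximal ends were at 0.23, and 0.085 with whole tags, 0.084 without the most tagged sites, 0.16 and 0.29 in the parts, 0.14 for HpaII per site, and 0.20 and 0.17 at widths of 1 and 5 Mb. The distal ends were at 0.23, and 0.086, 0.098, 0.19 and 0.26, 0.12, and 0.28 and 0.17 in the same order.

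The median score was 26.5, and 29.03, 24.5 and 35.4 at minima of 5, 20 and 50 MspI tags, 26.5 scaled to autosomes and 8.31 scaled to dense sites, so its level follows the scaling. The correlation of neighbours over 100 and up to 500 bp apart was 0.65, and 0.64 and 0.73 at minima of 5 and 50. Windows at least 1.5-fold above numbered 211, and 102 with whole tags, 102 without the most tagged sites, 539 at 500 kb, 83 at 2 Mb and 109 for HpaII per site; those below numbered 28, and 77, 76, 173, 3 and 219. Added after seeing the data: promoters below the average numbered 7, and 3 at a minimum of 50 MspI tags, 4 with matched CCGG only and 1 with at least 5 CCGG; dense clusters below it numbered 58, and 102 at a minimum of 20 and 11 with whole tags. The number of windows, promoters or clusters tested also changed with window size, minimum and site set, so these counts cannot be compared as shares. In the main run they were 8.70% and 1.15% of 2426 windows, 0.219% of 3196 promoters and 2.08% of 2793 clusters. The causes of the shifts under these alternatives were not tested. No paired analysis was possible because each enzyme has 1 library.

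Depth limits single sites most: of dense sites, 6.36% reached 10 MspI tags, so the crowded sites rest on sums.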
